A study of Mus musculus with 50 samples.

Results

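The CD45- (non immune) segments of 1 lung section were examined, comparing injured with peri-injured tissue after ozone. The members are the 6 CD45- segments of the section from a young mouse labelled SP-CI73T mutant, out of 48 tissue segments and 50 samples in all. They were taken by their labels alone: regions 1, 2 and 3 are labelled injured and regions 4, 5 and 6 peri-injured. The mouse was 12 weeks of age, and its lung was collected 72 hours after whole-body exposure to 0.8 ppm ozone for 3 hours, so both groups carry the mutation and the exposure. Each region also gave a CD68+ (macrophage) segment. The other sections, used here only to show where this one differs, came from an 80-week-old SP-CI73T mutant after ozone (3 injured and 3 peri-injured regions), from a 12-week-old SP-C wild type mouse after ozone (4 and 4) and from a 12-week-old SP-C wild type mouse in air (4 healthy regions). The treatment field of the air samples names ozone, while their titles and time point give air, and the titles were followed.

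Alveolar type 2 cells secrete surfactant, surfactant protein C (SP-C) among its parts, and renew the alveolar epithelium. Mutant SP-C that is mistrafficked in these cells is known from interstitial lung disease. Ozone is an oxidant gas that damages airway and alveolar lining cells and draws in macrophages. A CD45- segment leaves out cells carrying the leukocyte marker CD45, so it holds epithelium, endothelium and stroma together.

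All 6 regions came from 1 animal, so p-values over regions measure the spread within 1 lung and are too small for statements on animals. This applies to every test over regions given here. The sources used here do not say how regions were called injured or peri-injured, and fewer cells of a type cannot be told apart from less RNA per cell in such segments. The files do not pair the probe identifiers (RTS numbers) with genes, so no gene, pathway or cell type can be attached to them. The lists of cell type markers, the SP-C transcript among them, could not be evaluated, and the label non immune was therefore not checked against its markers.

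Total counts, after removal of duplicate reads, were 188948, 210491 and 74468 in injured regions 1, 2 and 3, against 199225, 136011 and 105816 in peri-injured regions 4, 5 and 6. Region 3 was the shallowest segment and also the smallest, with an area of 17962, against 24116 to 41401 in the other 5 (the worksheets print no unit). Region 1 stood apart in its reads, of which 85.5% were repeats of a molecule already counted, against 93.7% to 95.1% in the others. The no template control of the same plate held 4 counts. The median identifier had 6, 6 and 3 counts in the injured and 7, 5 and 4 in the peri-injured segments, so most of the panel was counted too thinly to be compared.

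Injured segments held a larger share of their counts in the 10 most abundant identifiers, which rested on RTS0076055. The 10 most abundant identifiers held 7.77%, 7.56% and 7.37% of the counts in injured regions, against 5.70%, 5.75% and 5.41% in peri-injured regions. The means were 7.57 ± 0.195% and 5.62 ± 0.184% (SD, n = 3 each), and the groups did not overlap. A two-sided exact permutation test gave p = 0.1, the smallest value that 3 regions against 3 allow (adjusted p = 0.7 over 7 measures). With RTS0076055 left out, which was tried after seeing the data, the shares were 5.49%, 5.55% and 5.21% in injured regions against 5.70%, 5.75% and 5.41% in peri-injured regions (exact permutation p = 0.3). The groups then overlapped, and the injured mean was the lower one. Identifiers above 10 times the median level held 19.8%, 22.4% and 14.6% of the counts in injured regions 1, 2 and 3 against 14.6%, 14.1% and 13.5% in peri-injured regions 4, 5 and 6, where region 3 lay beside the peri-injured ones. The medians were whole counts of 6, 6, 3, 7, 5 and 4 in regions 1 to 6, so this cut varied with depth and rounding. The part of the cut in these shares was not tested. The number of identifiers expected at a common depth of 74468 counts was 17853 ± 348 in injured and 18229 ± 67.0 in peri-injured regions (SD, n = 3 each; exact permutation p = 0.3). The exact permutation p for total counts, detected identifiers, area, share of captured area and repeated reads lay between 0.2 and 0.9.

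**Figure D1:**
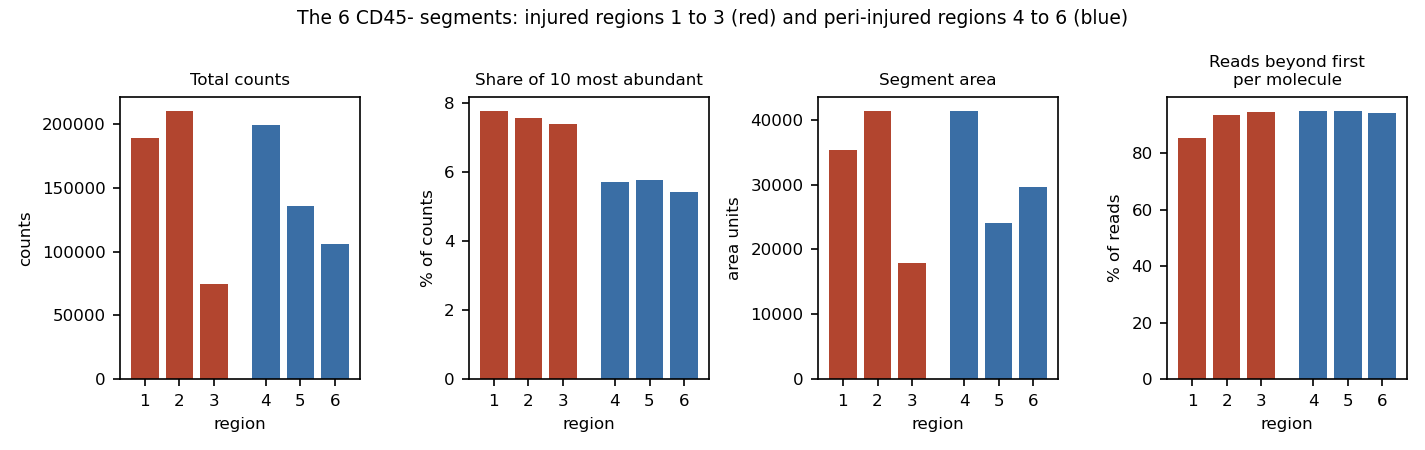
Total counts, percent of counts in the 10 most abundant identifiers, segment area (no unit given) and percent of reads beyond the first per molecule, 1 bar per CD45- segment, injured regions 1 to 3 in red and peri-injured regions 4 to 6 in blue. Only the share of the 10 most abundant identifiers separates the groups among these 4 panels (7.37% to 7.77% against 5.41% to 5.75%), region 3 has the lowest total and area, and region 1 the lowest share of repeated reads.

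The question of the comparison was which transcripts set injured apart from neighbouring peri-injured non-immune tissue. A small set of identifiers was higher in injured regions, led by RTS0076055, which was the most abundant identifier of the injured segments. Of 3404 identifiers with enough counts to be tested, out of 20175, 15 passed an adjusted p of 0.05 in edgeR (0.441%). In injured regions 14 of them were higher (0.411%) and 1 was lower (0.0294%). Of the 14, 5 were at least 4-fold higher, 8 were 2-fold to 4-fold higher and 1 less than 2-fold. Their median log2 fold change was 1.69, against -0.01 over all identifiers tested.

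RTS0076055 had levels of 31277, 29484 and 26317 CPM (counts scaled to a library of 1e6) in injured regions 1, 2 and 3, against 1771, 585 and 310 CPM in peri-injured regions 4, 5 and 6. The injured regions were close to each other and all far above the highest peri-injured region, number 4. In edgeR this was a log2 fold change of 4.89 (SE 0.36, adjusted p = 4.05e-09), or 29.6-fold. Without peri-injured region 4 it was 5.89. It rested on 1850 to 5183 counts in each injured segment and on 31 to 320 in each peri-injured one. It made up 2.67%, 2.46% and 2.48% of all counts in injured regions, against 0.161%, 0.0544% and 0.0293% in peri-injured regions. The exact 95% binomial intervals ran from 2.37% to 2.74% over the injured and from 0.0199% to 0.179% over the peri-injured segments, and such intervals cover counting error only. In healthy tissue of the air section its CD45- level ran from 113 to 426 CPM, a range that holds peri-injured region 6 but not region 4 or 5.

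RTS0064947 had 1382 CPM in region 1, 1229 CPM in region 2 and 541 CPM in region 3, all injured, against 77.5, 63.3 and 80.1 CPM in peri-injured regions 4, 5 and 6. Here region 3 stood below the other injured regions but still well above all peri-injured ones. edgeR put the log2 fold change at 3.72 (SE 0.30, adjusted p = 1.60e-08), or 13.1-fold. The peri-injured levels rested on 14, 8 and 8 counts, against 38 to 223 in the injured segments, so the size of the fold is uncertain. RTS0076055 and RTS0064947 are the 2 higher identifiers that the naming rule picked. RTS0076072, RTS0063348 and RTS0064300 were singled out once their values were known.

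RTS0076072 had 558, 387 and 413 CPM in injured regions, against 55.3, 47.4 and 20.02 CPM in peri-injured regions. It thus showed no overlap, and region 3 did not lag behind. edgeR put the log2 fold change at 3.24 (SE 0.34, adjusted p = 1.45e-06). Its peri-injured levels rested on 10, 6 and 2 counts, where the median identifier had 7, 5 and 4, so the size of this change is uncertain too. RTS0063348 had a smaller difference, with 1500.3, 1234 and 996 CPM in injured regions against 448, 308 and 280 CPM in peri-injured regions. All injured regions again lay above all peri-injured ones, by 1.71 on the log2 scale (SE 0.22, adjusted p = 3.78e-05 in edgeR). RTS0063348 passed in 15 of 16 alternatives, but not with counts thinned to the shallowest segment (1.18, adjusted p = 0.151 in edgeR).

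RTS0064300 behaved differently among the injured regions. It had 2195 CPM in region 1, 3709 CPM in region 2 and 142 CPM in region 3, against 210, 134 and 80.1 CPM in peri-injured regions 4, 5 and 6. Region 3 fell within the peri-injured range, so the groups overlapped, and 57.3% of the summed CPM came from region 2. The log2 fold change of 3.62 (SE 0.54, adjusted p = 0.000399 in edgeR) therefore describes regions 1 and 2. It did not pass with DESeq2 (adjusted p = 0.313) or voom (adjusted p = 0.178), over a range of alternatives from 5.56e-23 to 0.313, and the log2 fold change was 2.94 without region 2.

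**Figure D2:**
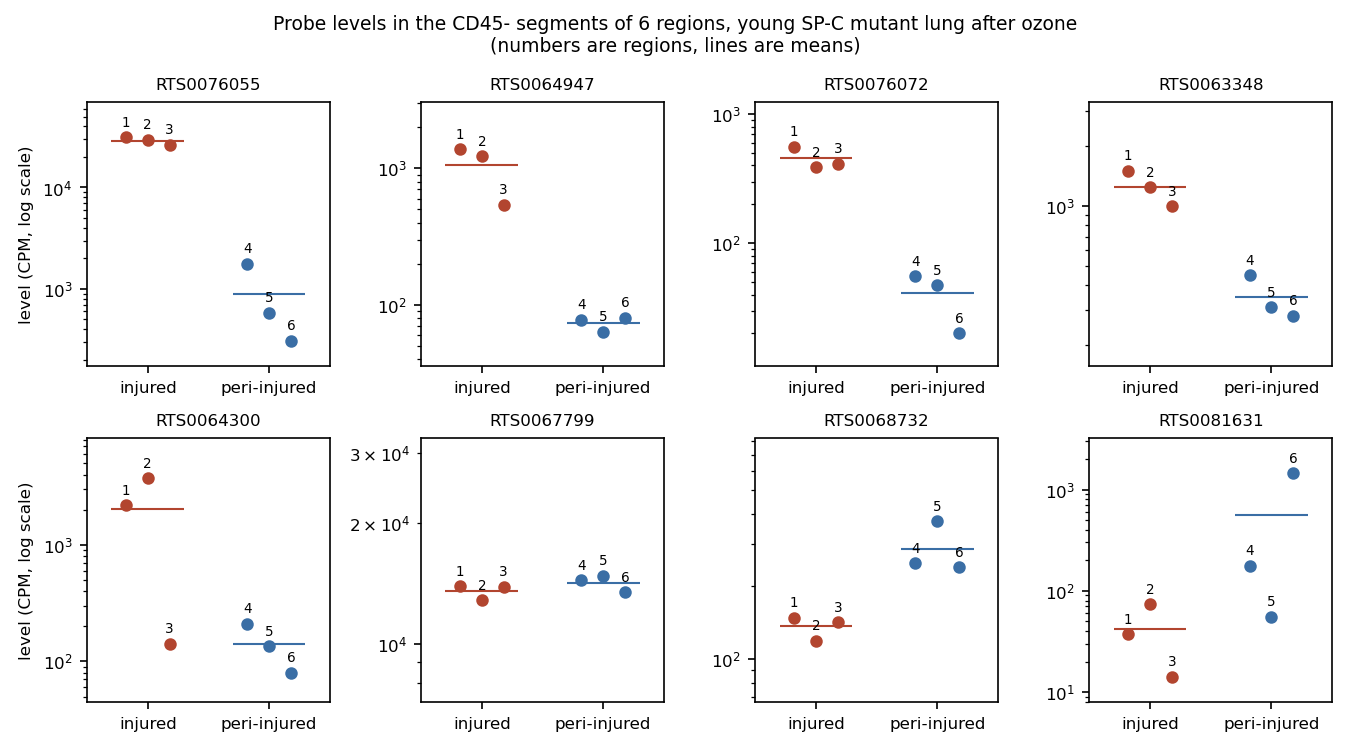
Level in CPM (log scale, each panel with its own range) of 8 identifiers in the CD45- segments, 1 point per region with its number, injured on the left and peri-injured on the right, lines at the means. RTS0076055, RTS0064947, RTS0076072 and RTS0063348 lie higher in all 3 injured regions, RTS0064300 in regions 1 and 2 only, RTS0067799 is nearly level, and the high peri-injured mean of RTS0081631 comes from region 6.

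No identifier that met the naming rule was called lower. The one with the smallest p was RTS0068732, with 149, 119 and 142 CPM in injured regions against 249, 372 and 240 CPM in peri-injured regions. The groups did not overlap, but the adjusted p of its log2 fold change of -1.21 (SE 0.29) was 0.0643 in edgeR. The single identifier called lower, RTS0081631, was singled out after its values were seen. It had 37.2, 74.0 and 14.2 CPM in injured regions against 177, 55.4 and 1451 CPM in peri-injured regions. The groups overlapped and region 6 alone held 80.2% of the summed CPM. The log2 fold change was -3.62 (SE 0.77, adjusted p = 0.0274 in edgeR). Without region 6 edgeR gave -1.42 (adjusted p = 0.171, in a range of 1.37e-05 to 0.817 over 14 alternatives).

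By level, the 2 most abundant identifiers of the 6 segments were RTS0076055 and RTS0067799. RTS0067799 had 13961, 12879 and 13912 CPM in injured regions against 14435, 14804 and 13493 CPM in peri-injured regions. These values overlapped, and edgeR put the log2 fold change at -0.18 (SE 0.15, adjusted p = 0.776). In peri-injured tissue RTS0067799 stood far above RTS0076055, and in injured tissue the order of the 2 levels was the reverse. Probes differ in how well they bind, so an order of levels between identifiers is one of probe counts.

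The pair RTS0068460 and RTS0068462 was singled out from earlier results of the series. RTS0068460 had 645, 1126 and 3002 CPM in injured regions against 1660.5, 1044 and 721 CPM in peri-injured regions. RTS0068462 ran alongside, with 440, 540 and 1522 CPM in injured regions against 1013, 617 and 470 CPM in peri-injured regions. Both were highest in injured region 3 and next highest in peri-injured region 4, and the groups overlapped. In edgeR they had 0.36 (SE 0.37, adjusted p = 0.819) and 0.08 (SE 0.35, adjusted p = 0.974) on the log2 scale. Without region 3 they were -0.50 and -0.65, and neither passed in any alternative.

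Most of the 14 higher identifiers were abundant, and most were lowest among injured regions in region 3. Their mean levels ran from 123 to 14957 CPM with a median of 451 CPM, against a median of 88.5 CPM over all identifiers tested, and 14 of the 15 calls fell among the 851 identifiers with the highest level. Region 3 was the lowest injured region for 13 of the 14 (92.9%), against 51.4% of all identifiers tested. Its level was 0.415 times the mean of regions 1 and 2 in the median of the 14, and 0.834 times over all tested. Region 4 was the highest peri-injured region for 11 of the 14 (78.6%), against 34.8% of all tested. Region 3 had the lowest total and the smallest area, and the part of either in this pattern was not tested.

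In 12 of the 14 the injured and peri-injured levels did not overlap. The 14 were called on these same levels, so this count is no separate support for them. Over all tested, 8.55% were higher without overlap (291) and 3.88% were lower (132). With no difference, 1 of the 20 arrangements of 3 regions against 3 puts all injured levels on top, and 1 puts them all below. A lack of overlap is therefore common by chance alone. At an unadjusted p under 0.05 there were 186 higher and 143 lower identifiers. The number of calls depended on single regions. It was 7 without region 2, all higher, and 118 (95 higher and 23 lower) without region 3, where 5721 identifiers were tested and all 15 calls remained. It was 26 (22 higher, 4 lower) without region 4, 22 (10 higher, 12 lower) without region 5 and 30 (17 higher, 13 lower) without region 6. With no filter on low counts there were 22 higher and 18 lower, and at a minimum count of 5 there were 15 higher and 6 lower. The balance of 14 to 1 therefore depended on single regions and on the filter. DESeq2 called 6, all of them higher and among the 15. RTS0064947, RTS0076072 and RTS0068724 passed in all 16 alternatives, and RTS0076055 passed in all 15 that kept it in the table. The least stable of the 14 was RTS0076158, which passed in 6 of 16. RTS0064811 and RTS0078277 passed in 7, RTS0063012 and RTS0071636 in 10, and the rest in 11 to 15.

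**Figure D3:**
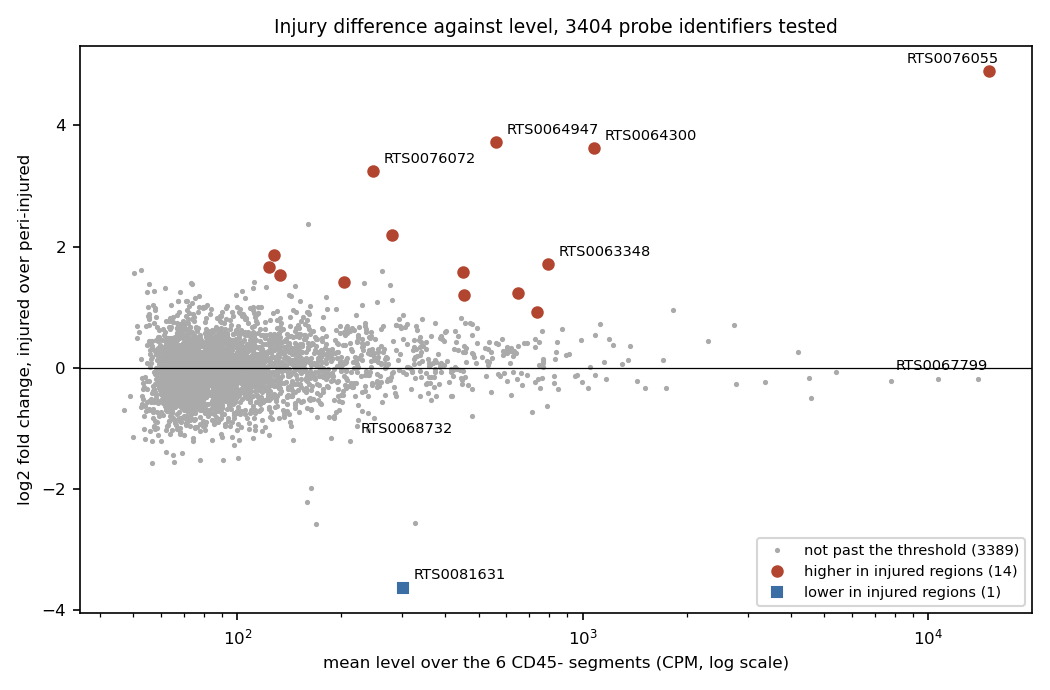
Log2 fold change of injured over peri-injured regions (vertical) against the mean level in CPM over the 6 CD45- segments (horizontal, log scale), 1 point per identifier tested. The 14 identifiers called higher (red circles) lie among those with a higher mean, which includes their raised injured levels. The 1 called lower (blue square) is RTS0081631, and the 3389 that did not pass are grey.

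The macrophage segments of the same regions allow the 14 to be set beside tissue chosen for CD68. In 13 of the 14 the injured CD68+ mean was above the peri-injured CD68+ mean, as it was for 2023 of the 3404 identifiers tested. In 8 of the 14 the 3 injured CD68+ levels exceeded all 3 peri-injured ones, against 8.64% of all tested (294). In 8 of the 14 the injured mean was also higher in CD68+ than in CD45- segments, against 714 of 3404. RTS0076055 is one, with a mean of 29026 ± 2511 CPM in injured CD45- and 102108 ± 57556 CPM in injured CD68+ segments (SD, n = 3 each). RTS0071636 is the exception to the first count, with 202 and 53.1 CPM in injured and peri-injured CD45- segments, and 56.3 and 94.4 CPM in injured and peri-injured CD68+ segments. RTS0078277 was higher in injured CD45- segments (200.2 against 64.7 CPM) while its CD68+ means were 30.4 and 28.6 CPM. These CD68+ means rest on few counts. RTS0071636 had 6, 1 and 1 counts in injured and 5, 0 and 5 in peri-injured CD68+ segments. RTS0078277 had 5, 0 and 0 counts in injured and 1, 1 and 1 in peri-injured ones. RTS0071636 and RTS0078277 were picked after their values were seen.

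**Figure D4:**
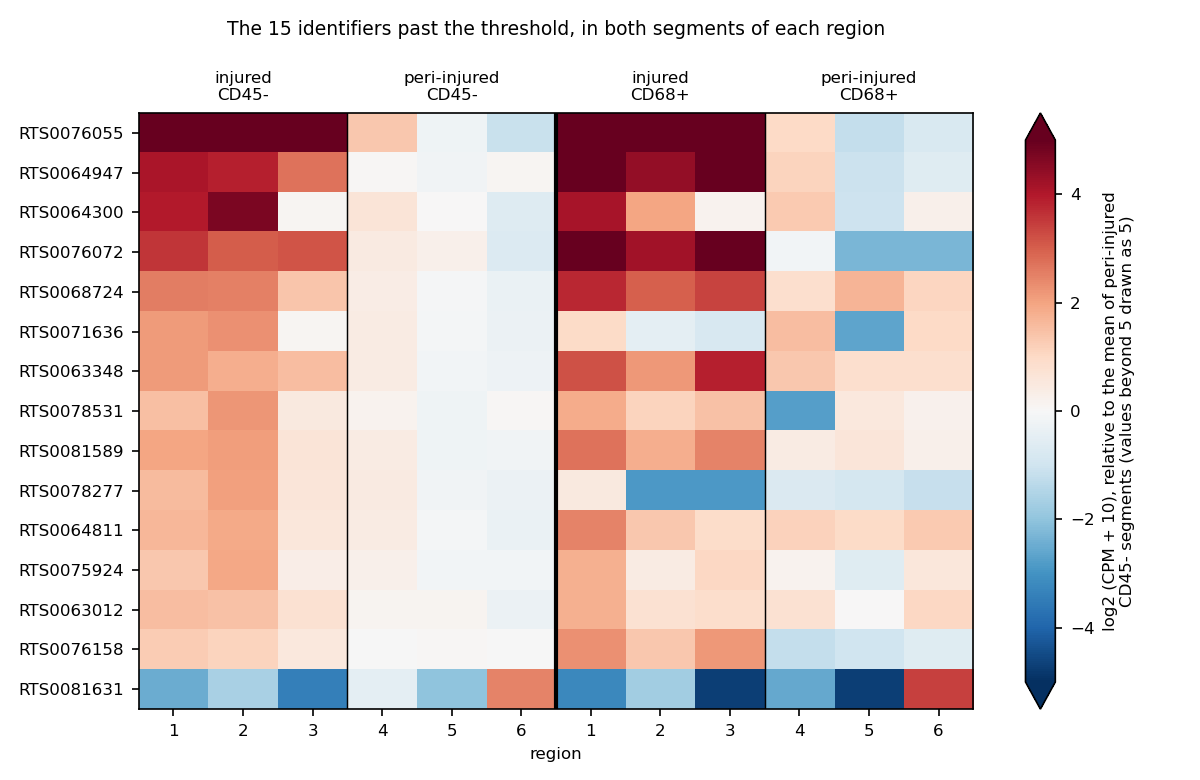
Levels of the 15 identifiers past the threshold (rows) in the CD45- segments (left) and CD68+ segments (right) of regions 1 to 6, as log2 of CPM plus 10 relative to the mean of the peri-injured CD45- segments, red higher and blue lower, with values beyond 5 drawn as 5. The injured CD45- columns of regions 1 and 2 are red in the 14 upper rows. Region 3 is nearly white for RTS0064300 and RTS0071636. It is pale, at 0.32 to 0.76, for RTS0075924, RTS0078531, RTS0076158, RTS0064811, RTS0078277, RTS0081589 and RTS0063012. RTS0071636 and RTS0078277 are not red in most injured CD68+ segments, where each has 0 to 6 counts. RTS0081631 in the last row is red only in region 6.

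An interaction over the 12 segments of this section tested whether the injury difference itself differed between CD45- and CD68+ segments. RTS0076158 had the smaller difference in CD45- segments. Its CD45- levels were 1190.3, 1069.5 and 697 CPM in injured regions against 470.5, 498 and 480.5 CPM in peri-injured regions. Its CD68+ levels were 2409, 1229.9 and 2232 CPM in injured regions against 205, 234 and 316 CPM in peri-injured regions. Both segment types were higher in all injured regions, and the spread was wider in CD68+ segments. The log2 difference of the differences was -1.82 (SE 0.33, adjusted p = 0.0226 in edgeR), the only call among 883 identifiers tested (0.113%), where 59 had an unadjusted p under 0.05. It did not pass without region 1, 4, 5 or 6, with -2.03, -1.82, -1.79 and -2.05.

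With the region as a replicate block, which keeps both segments of a region together, 7 identifiers passed, 4 higher and 3 lower. RTS0076158 kept its call at -1.82 (SE 0.35, edgeR adjusted p = 0.00864). RTS0076055 had -2.14 (edgeR adjusted p = 0.513) without the block and -1.88 (SE 0.28, edgeR adjusted p = 0.000514) with it. RTS0076370 had 1.93 (SE 0.40, edgeR adjusted p = 0.0504) without the block and 1.89 (SE 0.30, edgeR adjusted p = 0.000998) with it. RTS0076370 had 4470 CPM in region 1, 5376 CPM in region 2 and 2176 CPM in region 3 of the injured CD45- segments, against 5153, 5710 and 4494 CPM in peri-injured ones. In CD68+ segments its levels were 3012, 888 and 2307 CPM in injured regions, against 5733, 11957 and 11203 CPM in peri-injured regions, with no overlap. RTS0076055 was singled out here after its values were seen.

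Macrophage-segment and non-immune-segment identifiers were taken from the 3 other sections, as those higher (213) or lower (102) in CD68+ than in CD45- segments. Of the 213, 88 were tested in the CD45- segments of the young mutant and 3 were called higher (3.41%, against 0.411% of all tested) and 0 lower. Without overlap, 7 were higher (7.95%, against 8.55% of all tested) and 6 lower (6.82%, against 3.88%), and the median log2 fold change was 0.00. RTS0063348 is one of the 3, and RTS0076055 is not in the list. Of the 102, 69 were tested, of which edgeR called 0. Without overlap, 4 were higher (5.8%, against 8.55% of all tested) and 10 lower (14.5%, against 3.88%), and the median was -0.33, against -0.01 over all tested. The summed level of the macrophage-segment list was 35685, 38967 and 20954 CPM in injured CD45- segments against 31754, 32297 and 28637 CPM in peri-injured ones. In CD68+ segments the sums were 57329, 49094 and 45468 CPM in injured regions against 42721, 57475 and 60656 CPM in peri-injured regions. The CD45- sums overlapped between the groups, with region 3 the lowest and region 2 the highest of the 6. The non-immune-segment list summed to 12585 to 14197 CPM in injured and 13699 to 14646 CPM in peri-injured CD45- segments, which also overlapped. The part of macrophage RNA in the 14 was not tested.

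Against the wild type ozone section, edgeR called 4 of 4115 identifiers with a larger (0.0972%) and 0 with a smaller injury difference in the young mutant. At an unadjusted p under 0.05 there were 288, and DESeq2 called 1, with a larger difference. Without young mutant region 4 edgeR called 8 larger and 6 smaller, and without region 5 it called 3 of each, so the direction of the calls depended on these regions. Without young mutant region 3 it called 16 larger and 0 smaller. Genotype and plate cannot be told apart here, and each section is 1 animal. RTS0068724 had 583, 563 and 256 CPM in injured regions of the young mutant against 122, 87.0 and 70.1 CPM in its peri-injured regions. Wild type levels were 293, 537, 579 and 389 CPM in injured regions against 430.3, 518, 358 and 435 CPM in peri-injured regions. It was thus separated in the young mutant and level in the wild type, and it stood at 0 to 75.2 CPM in the air section. The log2 difference was 2.23 (SE 0.36, adjusted p = 0.000490 in edgeR) and passed in all 18 alternatives.

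RTS0076055 was higher in injured regions of both sections, and its wild type levels were 436, 255, 241 and 511 CPM in injured against 74.8, 31.7, 94.9 and 169.9 CPM in peri-injured regions. The injury difference was larger in the young mutant by 2.97 on the log2 scale (SE 0.54, adjusted p = 0.00359 in edgeR). It did not pass without wild type peri-injured region 15 (2.53, adjusted p = 0.0955) or with DESeq2 (adjusted p = 0.256), over 17 alternatives with adjusted p of 1.35e-07 to 0.256. Without young mutant region 4 the difference was 3.99. The other calls were RTS0071636 (2.18, SE 0.45, adjusted p = 0.0169 in edgeR) and RTS0076158 (1.29, SE 0.26, adjusted p = 0.0164), both singled out with values known. In the wild type section their means ran the other way, at 166 and 288 CPM in injured and 202 and 352 CPM in peri-injured regions. They passed in 11 and 12 of 18 alternatives, and neither passed with DESeq2 or without young mutant region 1, 2 or 6 or wild type region 15. In air, CD45- levels of RTS0071636 were 90.1 to 290 CPM and those of RTS0076158 were 533 to 851 CPM. These lay above all peri-injured levels of the young mutant, at 40.0 to 72.0 and 470 to 498 CPM. For RTS0071636 this rests on 4 to 16 counts per air segment and 4 to 13 per peri-injured one. RTS0063348 and RTS0064947 went the other way, with air levels of at most 199 and 54.3 CPM, below all peri-injured levels of the young mutant. RTS0064947 had only 1 to 3 counts per air segment and 8 to 14 per peri-injured one. Genotype, plate and exposure cannot be told apart in these comparisons with air. Of those with a smaller difference in the young mutant, RTS0081477 had the smallest p but was not called (-2.42, SE 0.59, edgeR adjusted p = 0.0788).

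Against the old mutant section, 2 of 2227 identifiers differed in their injury difference (0.0898%), 1 with a larger (0.0449%) and 1 with a smaller difference (0.0449%) in the young mutant. RTS0063348 had a larger difference in the young mutant. Its levels in the old mutant were 527, 471 and 441 CPM in injured regions against 528, 327 and 418 CPM in peri-injured regions, which overlapped. The log2 difference was 1.73 (SE 0.30, adjusted p = 0.00573 in edgeR). The call was lost without young mutant region 1, 5 or 6 or old mutant region 10 or 12 (adjusted p of 0.00218 to 0.125 over 16 alternatives). Against the wild type section the same identifier had 1.31 (SE 0.39, edgeR adjusted p = 0.246).

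RTS0080776 ran in opposite directions in both mutants. It had 80.6, 96.7 and 114 CPM in injured regions of the young mutant against 227, 158 and 190.4 CPM in its peri-injured regions. In the old mutant it had 126, 136 and 131 CPM in injured regions against 51.1, 51.6 and 36.9 CPM in peri-injured regions, where each region held 3 counts. The groups did not overlap in either section. The log2 difference was -2.51 (SE 0.51, adjusted p = 0.0295 in edgeR), and it passed in only 3 of 16 alternatives (adjusted p of 0.0150 to 0.700), which were upper quartile factors, the table without RTS0076055 and the fit without young mutant region 3. RTS0076055 had 2.75 (SE 0.63, edgeR adjusted p = 0.0995) in the same comparison and stood at 3090.0 to 9417 CPM in injured regions of the old mutant against 394 to 3131 CPM in peri-injured regions. Peri-injured region 7 of the old mutant exceeded its lowest injured region. The difference was 1.34 (edgeR adjusted p = 0.995) without that region and 3.70 (adjusted p = 0.000392) without young mutant region 4, and it passed in 4 of 15 alternatives (adjusted p of 0.000392 to 0.998).

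Across the 14 identifiers as a group, the injured mean was above the peri-injured mean for all 14 in the old mutant section and for 10 in the wild type section. Over the 3404 identifiers tested the same held for 2315 and for 1949. The levels did not overlap for 2 of the 14 in the old mutant (11.4% of all tested) and for 1 in the wild type section (2% of all tested).

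**Figure D5:**
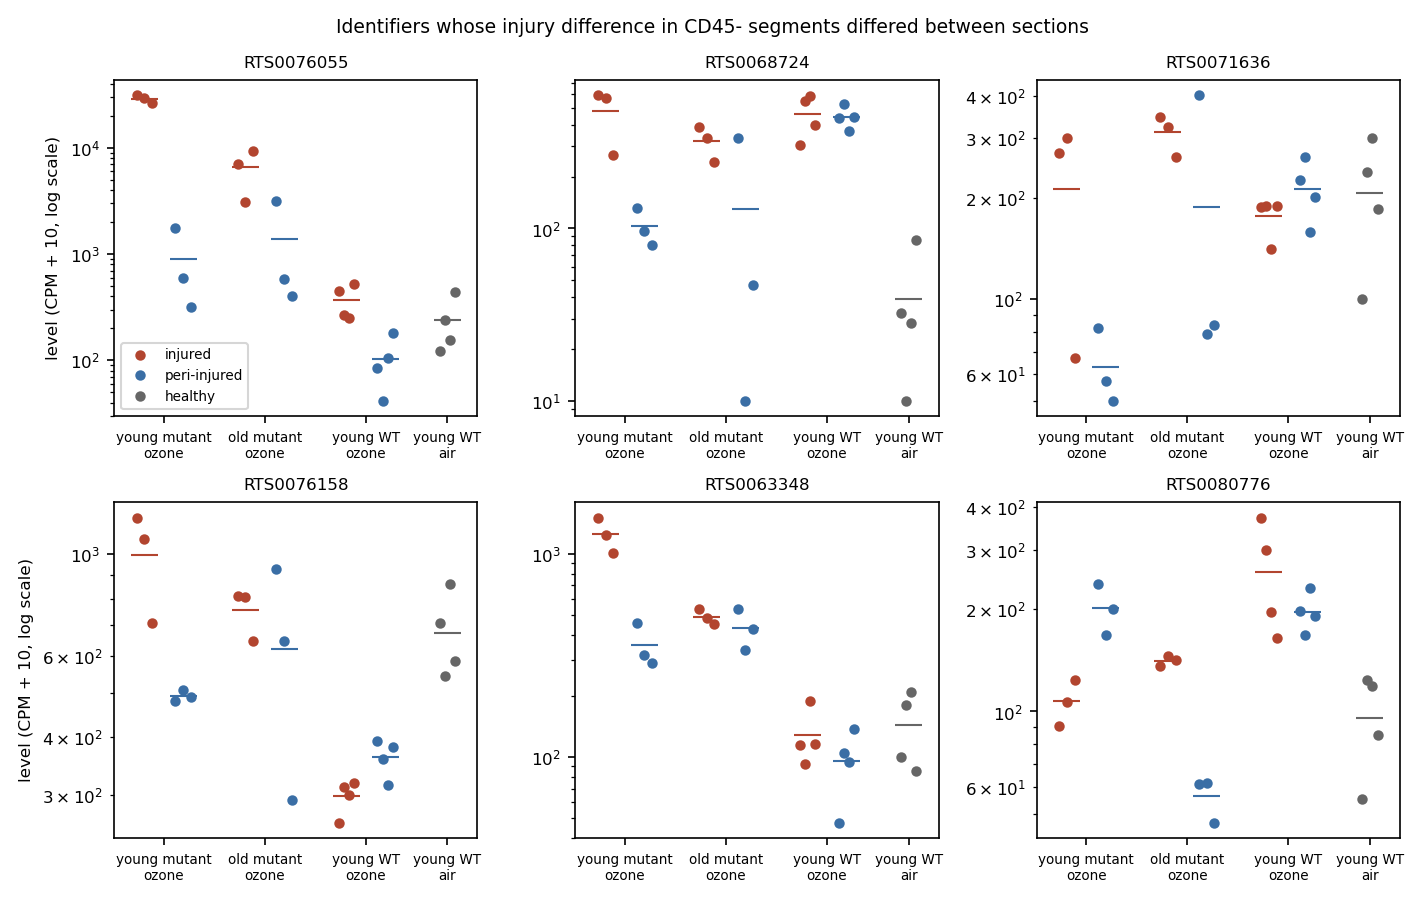
CD45- level of 6 identifiers as CPM plus 10 (log scale, each panel with its own range) in the young mutant, old mutant and wild type ozone sections and the wild type air section, 1 point per region, injured in red to the left of peri-injured in blue, healthy in grey, lines at the means. RTS0068724 is separated by injury in the young mutant and level in the wild type section, RTS0063348 is separated in the young mutant alone among these 3 ozone sections, and RTS0080776 has its injured points below the peri-injured ones in the young mutant and above them in the old mutant.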

How the data were processed

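GeoMx digital spatial profiling counts barcodes of RNA probes released from stained segments of a section. Per the labels' protocols, libraries from 6 µm paraffin sections, stained for DNA, CD45 and CD68, were made with the NanoString mouse whole transcriptome kit. The deposited values are counts of barcodes after removal of duplicate reads by molecular identifiers, made with the GeoMx NGS Pipeline 2.3.4, per the file headers. The submitters' processing notes name mm10, and the sources used here give no aligner. Barcodes not listed were set to 0. Of 20238 identifiers, 20175 in a single run of numbers were analysed, 63 outside it did not enter library sizes, and 0 matched a name in the reference tables. Segment areas come from the deposited worksheets.

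Members, lists and tests were chosen with earlier results of these data known. Identifiers were kept by filterByExpr (minimum count 10), scaled by TMM, with each region as a library. The two-sided quasi-likelihood test of edgeR 4.0.16 in R 4.3.3 (glmQLFit, then glmQLFTest) was adjusted after Benjamini-Hochberg, with a threshold of 0.05. The SE is the log2 fold change over the square root of F. CPM levels use TMM-scaled library sizes of all 48 segments. The rule named, per comparison, at most 2 identifiers in each direction with the largest change among those called, above the median level, with no segment holding most of the summed CPM and, for injury, with no overlap. Chi-square per degree of freedom between regions of a group was 1.22 to 1.65, so no pair was 1 library deposited in duplicate. Region numbers pair both segments of a region, since the labels give both to the same region and animal. Deviations from group means correlated at 0.0220 to 0.170 within regions and -0.202 to 0.0907 between regions, over 883 identifiers. Deviations within a group offset each other, which lowers the values between regions. Injured CD45- region 1 had 0.0220 with its own CD68+ segment and 0.0336 with that of region 2. The pairing thus rests on the labels. Alternatives were DESeq2 1.42.0, voom in limma 3.58.1, other scalings and filters, thinned counts, a shared fit of 3 sections, the replicate block, a list threshold of 0.01 and leaving out each region. The scripts were tested on simulated data.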

Additional observations from a re-analysis of the deposited data

Results flagged for a closer look

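In 48 groups of 4 regions examined for a value far from the rest, 2 stood out, where chance alone marks about 1 in 20 groups. Both lie in the injured CD45- segments of the wild type ozone section: the highest level of RTS0068462, at 524 CPM, and the lowest level of RTS0071636, at 131 CPM.

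The injury difference differed between segment types of the young mutant section for RTS0076158, by -1.82 on the log2 scale. It differed between the young mutant and the wild type ozone section for RTS0076055 (2.97), RTS0068724 (2.23), RTS0071636 (2.18) and RTS0076158 (1.29). Between the young and the old mutant section it differed for RTS0063348 (1.73) and RTS0080776 (-2.51).

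Identifiers outside the analysed range of numbers held 65 counts over the 6 CD45- segments, against 0 in the no template controls.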

How the results depend on the processing

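All 6 regions come from 1 animal, and region 3 has the fewest counts. The filter let 5721 identifiers through without region 3, 6209 without region 5 and 5884 without region 6, against 3404 with all regions. The calls in these fits were 118, 22 and 30, so the number tested did not set the number called. No paired analysis was possible for the injury comparison, because injured and peri-injured regions share no region numbers. The 15 calls became 6 with DESeq2, 8 with voom, 40 with no filter, 8 with thinned counts, 30 with 3 ozone sections in 1 fit and 7 to 118 without 1 region. With a minimum count of 5 there were 21, of which 12 were among the 15. For injury by segment, DESeq2 and upper quartile factors each called 2 and the replicate block 7. A minimum count of 5 gave 0 in edgeR, with 248 of 4311 identifiers at an unadjusted p under 0.05. Leaving out 1 region gave 0 to 2. The fits with 0 tested 815 to 1155 identifiers, of which 58 to 74 reached that unadjusted p. The paired fit of the segments changed no call of those named there other than RTS0076370 and RTS0076055. Against the wild type section DESeq2 called 1 and a minimum count of 5 gave 2, with 1 to 16 without 1 region. Against the old mutant DESeq2 called 1, with 0 to 2 without 1 region. Here the fits with 0 tested 2822 to 2920 identifiers, of which 118 to 133 lay below 0.05 before adjustment. These counts are no more than chance alone gives. The median of the non-immune-segment list was -0.46 with a list threshold of 0.01, and -0.34 to -0.13 without 1 region. With voom RTS0068460 had -0.095 and RTS0068462 had -0.27, and without 1 region they ran from -0.50 to 0.80 and from -0.65 to 0.47. Without 1 region the difference of injured less peri-injured ran from -15309 to 52702 in total counts, from -621 to 231 in detected identifiers, from -5088 to 6579 in area and from -5.64 to 0.80 percentage points in the share of captured area. The difference in the share of the 10 most abundant identifiers was -0.206 percentage points without RTS0076055, which alone makes up more than the whole difference. Of 341 values of single identifiers under an alternative, 276 kept direction and side of the threshold, 45 lost the threshold, 15 passed it anew and 5 turned direction. The cause was not tested.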
